A study of Mus musculus with 4 samples.

Results

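The iron-dependent 2-oxoglutarate dioxygenases were examined here as a set of 41 genes: hydroxylases of collagen, of the hypoxia-inducible factor (HIF) and of small molecules, and demethylases of histones and nucleic acids. They were chosen by gene symbol, with earlier results of these data known, and all 41 were measured among 18194 genes. A gene was represented by its brightest single-gene probe set, the one with the highest mean log2 intensity over the arrays. The samples were sorted cells from chimeric mouse kidneys on embryonic day 15.5, profiled on 4 Affymetrix arrays. The first group, called labelled Tfrc-null below, comprised 2 arrays of GFP-positive Tfrc-/- cells, descended from embryonic stem cells that carried GFP and lacked the transferrin receptor gene Tfrc. The second group comprised 2 arrays of GFP-negative wildtype cells, which came from the host blastocysts that had received 3 to 5 of those stem cells. Both groups had therefore developed in chimeric embryos and had passed through collagenase, trypsin and sorting. The strains, the promoter that drove GFP, the deleted part of Tfrc, the number of stem cell clones and any pooling of kidneys are not given in the sources used here. No array held donor cells with intact Tfrc, so an effect of the deletion and a difference between donor line and host cannot be told apart.

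These enzymes share a catalytic core in which a ferrous iron atom is held by histidines and an acidic residue. They couple the oxidation of 2-oxoglutarate to succinate and carbon dioxide with the hydroxylation of a substrate by molecular oxygen, and many need ascorbate to keep the iron reduced. In the embryonic kidney they modify collagen in the secretory pathway, set the stability of HIF proteins by oxygen level, and remove methyl groups from chromatin and RNA. Transferrin receptor 1, the product of Tfrc, is the main route by which dividing cells take up transferrin-bound iron. Arrays measure transcripts, so enzyme activity and iron content were not measured.

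Tfrc itself was not lower in the cells labelled as lacking it. Its brightest probe set had intensities of 2509 and 3175 on the labelled Tfrc-null arrays, against 1758.5 and 2348 on the wildtype arrays (limma log2 difference 0.47, SE 0.24, adjusted p = 0.744). Whether these probes lie in the deleted part is not known, so the signal does not check the label, and every direction below rests on the label. Of 10 listed kidney genes 9 were measured, and all 9 lay above the control level on every array. As 13572 of all 18194 genes did so too, passing the control level does not identify the tissue. That level is the brightest of 27 probe sets for Bacillus subtilis transcripts, at 7.40 and 7.77 on the labelled Tfrc-null arrays and 7.18 and 9.08 on the wildtype arrays. Markers of several other cell types differed. All 13 ureteric bud genes, all 10 endothelial genes and all 8 measured erythroid genes had lower means in the labelled Tfrc-null cells. The summed erythroid intensity was 204 to 209 on the labelled Tfrc-null arrays and 840 to 2190 on the wildtype arrays. Of the erythroid genes 4 exceeded the control level on all arrays, and Epb42 and Rhag on none. Lower means were also found for 6 of 7 proximal tubule genes. Leukocyte genes were split, with 7 of 10 means higher and 3 lower, and 5 of 7 pluripotency genes had higher means. Over all genes 57.5% had a higher and 42.5% a lower mean. In such sorted bulk samples, fewer cells of a type and less RNA per cell cannot be told apart.

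Most dioxygenase transcripts differed little between the groups. Of the 41 genes, 38 (92.7%) had a mean within 0.5 log2 units of the wildtype mean, against 86.9% of all genes, and the median log2 difference was 0.06, against 0.04 over all genes. At an adjusted p of 0.05 limma called 0 of the 41 genes and 0 of all 18194 (0.0%). An unadjusted p under 0.05 was reached by 3 of the 41 (7.32%), Plod1, P4ha2 and Plod3, beside 1459 of all genes (8.02%), a share near the background. All 3 stood higher in the labelled Tfrc-null cells (background 4.03%) and 0 lower (background 3.98%). The number at an unadjusted p under 0.05 was 1 without labelled Tfrc-null replicate 1 (2.44%, against 4.13% of all genes), 1 without labelled Tfrc-null replicate 2 (2.44%, against 4.38%), 3 without wildtype replicate 1 (7.32%, against 6.88%) and 5 without wildtype replicate 2 (12.2%, against 10.5%). None of Plod1, P4ha2 and Plod3 was among them in all 4 cases. With the replicate number as a block, the mean of probe sets or an added offset, Kdm4c was also at an unadjusted p under 0.05, on the lower side, as was Alkbh8 with the mean of probe sets. A higher mean was found in 23 of 41 (56.1%, against 57.5% of all genes). The same 3 genes were those higher by at least 0.5 log2 units with groups apart (7.32%, against 5.75%), and 0 were lower by as much (against 5.36%). Both labelled Tfrc-null arrays lay above both wildtype arrays for 13 of the 41 genes (31.7%, against 20.6% of all genes) and below both for 3 (7.32%, against 14.3%). Leaving out an array compares 1 value with 2 and so separates the groups more easily. The share of all genes without overlap was not computed for that case, so the counts in the closing section have no background to be read against. Kdm4d and Bbox1 did not exceed the control level on any of the 4 arrays, and their differences enter only the counts and medians. Over the other 39 genes, 36 lay within 0.5 log2 units of wildtype, 22 had a higher mean (56.4%) and the median log2 difference was 0.06. Over the 14707 genes whose mean log2 intensity exceeded the mean log2 control level of the 4 arrays, the background shares were 9.71% at an unadjusted p under 0.05 (4.86% higher, 4.85% lower), 57.7% with a higher mean, 21.4% higher and 15.1% lower without overlap, and 6.92% higher and 6.45% lower by at least 0.5 log2 units. With 2 arrays against 2, an exact permutation test of one gene cannot give a two-sided p below 0.333.

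**Figure D1:**
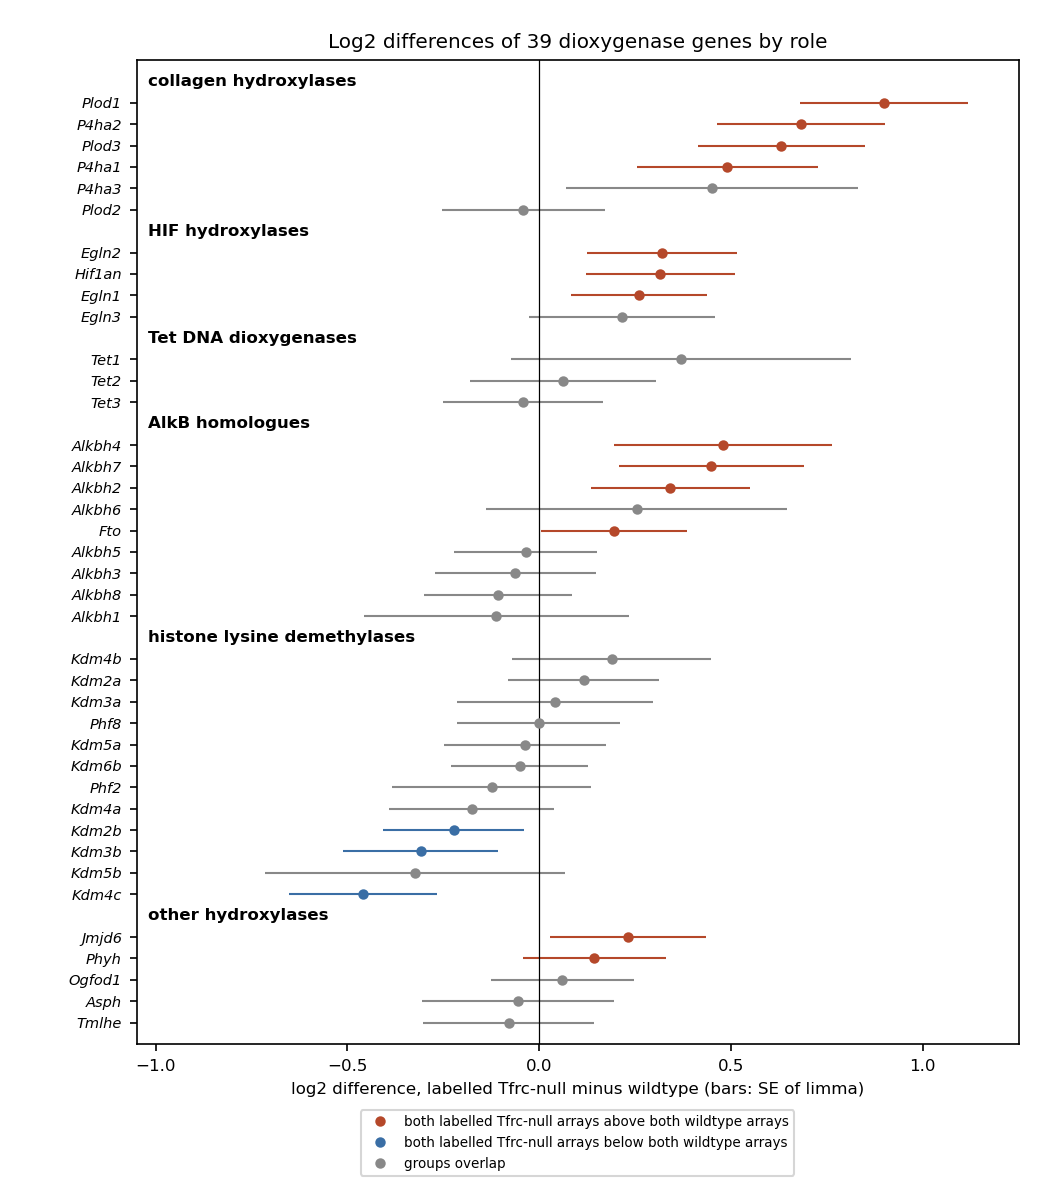
Log2 difference (labelled Tfrc-null minus wildtype, horizontal axis) of the 39 genes above the control level, grouped by role, with bars for the standard error of the limma fit on 2 arrays per group, in red or blue where both labelled Tfrc-null arrays lay above or below both wildtype arrays and in grey where the groups overlap. Points of the collagen hydroxylases reach 0.90 for Plod1, and the lowest point is Kdm4c at -0.46.

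The collagen hydroxylases had the highest median log2 difference of the 6 classes. P4ha1, P4ha2 and P4ha3 encode the catalytic subunits of collagen prolyl 4-hydroxylase, whose product stabilises the collagen triple helix, and Plod1, Plod2 and Plod3 encode lysyl hydroxylases, whose products prepare collagen for cross-links and sugar attachment. The stretches of 250 bases before the annotated starts of P4ha1, P4ha2, Plod1 and Plod3 are shown because these 4 genes were higher without overlap of the groups. They are from RefSeq on GRCm38.p6, at chr10:59323046-59323295 (plus strand), chr11:54100674-54100923 (plus strand), chr4:147936777-147937026 (minus strand) and chr5:136986769-136987018 (plus strand). Capitals mark the letters ACGTG on either strand (CACGT when read on the other), a form of the core of the hypoxia response element. The form GCGTG was neither marked nor counted, and all 4 stretches hold it.
P4ha1: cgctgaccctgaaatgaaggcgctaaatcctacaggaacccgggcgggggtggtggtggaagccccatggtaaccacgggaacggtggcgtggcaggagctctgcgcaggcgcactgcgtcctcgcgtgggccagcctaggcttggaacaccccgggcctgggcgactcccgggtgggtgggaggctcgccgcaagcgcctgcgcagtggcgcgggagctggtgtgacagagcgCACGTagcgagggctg
P4ha2: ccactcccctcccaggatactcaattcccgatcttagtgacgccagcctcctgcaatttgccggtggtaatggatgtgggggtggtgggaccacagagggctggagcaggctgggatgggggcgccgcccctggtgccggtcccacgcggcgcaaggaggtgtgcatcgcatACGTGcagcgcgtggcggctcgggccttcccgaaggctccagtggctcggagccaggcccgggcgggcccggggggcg
Plod1: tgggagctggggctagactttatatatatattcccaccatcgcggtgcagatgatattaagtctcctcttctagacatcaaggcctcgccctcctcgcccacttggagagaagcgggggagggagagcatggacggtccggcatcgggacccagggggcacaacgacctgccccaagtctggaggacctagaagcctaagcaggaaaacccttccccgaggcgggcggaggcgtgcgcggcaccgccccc
Plod3: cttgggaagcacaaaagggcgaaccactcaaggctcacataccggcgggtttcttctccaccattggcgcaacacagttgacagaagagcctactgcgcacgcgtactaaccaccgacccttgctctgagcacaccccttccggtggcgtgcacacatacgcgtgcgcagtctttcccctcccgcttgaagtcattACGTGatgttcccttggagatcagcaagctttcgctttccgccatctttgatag
The marked letters occurred once each in the P4ha1, P4ha2 and Plod3 stretches, starting 16, 78 and 54 bases before the start. They did not occur in that of Plod1. They were found in 13 of 42 promoter stretches (31.0%) of the 33 dioxygenase genes with an entry, and in 16.6% of the 32851 stretches of all genes. A match of these letters is a description of the sequence and not a binding site.

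Plod1, the lysyl hydroxylase of fibrillar collagen helices, had 435 and 375 on the labelled Tfrc-null arrays, against 245 and 191 on the wildtype arrays. Means were 405 ± 42.4 and 218 ± 38.2 (SD, n = 2 each), a 1.86-fold higher level (limma log2 difference 0.90, SE 0.22, adjusted p = 0.352). The lower labelled Tfrc-null array lay well clear of the higher wildtype array. Its second probe set was near the control level and is not used.

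P4ha2 had 107 and 143 on the labelled Tfrc-null arrays, against 76.5 and 77.7 on the wildtype arrays, so the wildtype arrays nearly coincided and the other group was the more spread. Means were 125 ± 25.5 and 77.1 ± 0.854 (SD, n = 2 each), 1.61-fold higher (limma log2 difference 0.68, SE 0.22, adjusted p = 0.505). Plod3, which also carries glycosyltransferase activity, had 136 and 133 on the labelled Tfrc-null arrays, against 99.9 and 75.4 on the wildtype arrays (log2 difference 0.63, SE 0.22, limma adjusted p = 0.538). Here the wildtype arrays were the more spread.

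P4ha1, the widely expressed catalytic subunit, had 404 and 387 on the labelled Tfrc-null arrays, against 334 and 237 on the wildtype arrays (log2 difference 0.49, SE 0.24, limma adjusted p = 0.713). Without wildtype replicate 2 this difference was 0.24. A second, dimmer P4ha1 probe set had 44.9 and 61.0 on the labelled Tfrc-null arrays, against 24.1 and 26.6 on the wildtype arrays, a log2 difference of 1.05. Both probe sets of P4ha1 thus separated the groups in the same direction.

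The remaining collagen hydroxylases did not separate the groups. P4ha3 had 20.9 and 29.3 on the labelled Tfrc-null arrays, against 12.9 and 25.4 on the wildtype arrays. Plod2, which hydroxylates collagen telopeptides, had 69.3 and 89.9 against 82.6 and 79.8 in wildtype, a log2 difference of -0.04 (SE 0.21). Its second probe set, with a log2 difference of 0.30, overlapped as well. Across the class, 4 of 6 genes were higher without overlap (66.7%, against 20.6% of all genes), 3 of 6 had an unadjusted p under 0.05 (against 8.02% of all genes), and the median log2 difference was 0.56.

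**Figure D2:**
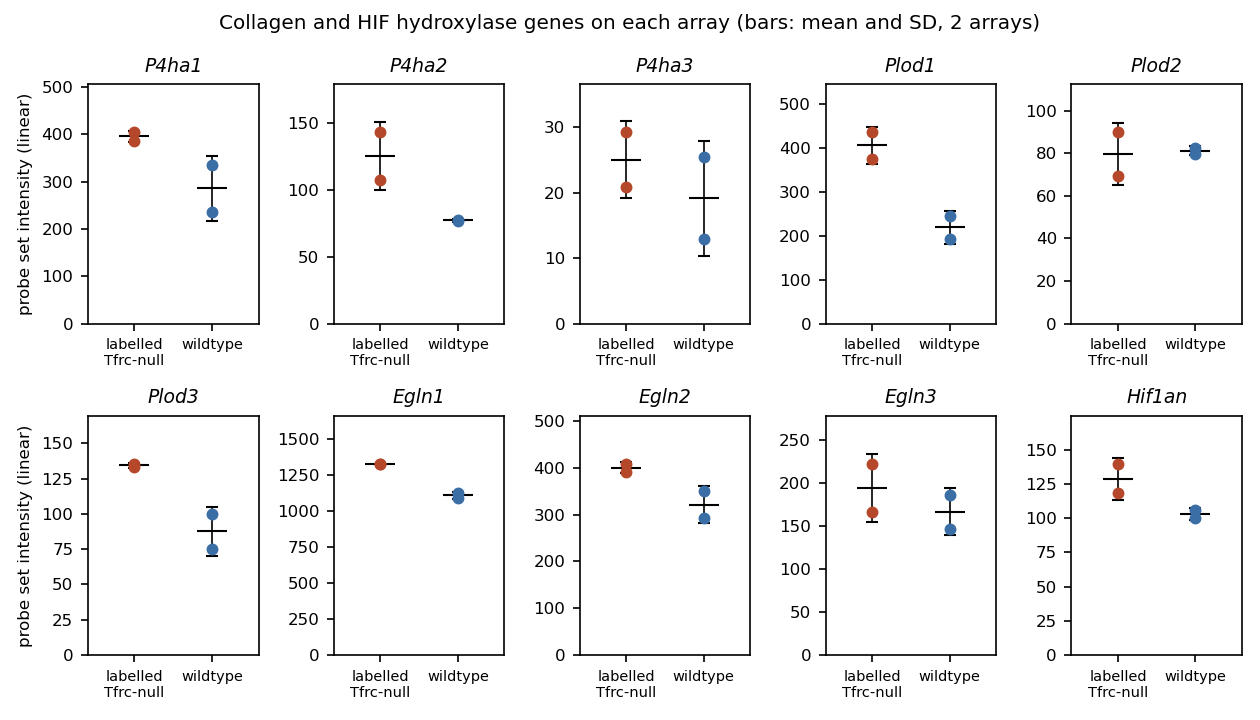
Linear probe set intensity of the 6 collagen and 4 HIF hydroxylase genes on each array (points), with the mean and SD of the 2 arrays per group as bars and vertical axes starting at 0. Plod1 lies between 375 and 435 on the labelled Tfrc-null arrays and between 191 and 245 on the wildtype arrays, while the Plod2 groups overlap.

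The partners and substrates of these enzymes were split. P4hb, the protein disulphide isomerase that forms the non-catalytic subunit of collagen prolyl 4-hydroxylase, had 4191 and 4482 on the labelled Tfrc-null arrays, against 4417 and 4315 on the wildtype arrays (log2 difference -0.01, SE 0.18). The collagen chaperone Serpinh1 also overlapped, with a log2 difference of 0.05. Of 12 measured assembly partners 7 were higher and 0 lower with groups apart (20.6% and 14.3% of all genes), around a median of 0.44 log2 units. In limma 0 passed an adjusted p of 0.05 and 4 had an unadjusted p under 0.05 (8.02% of all genes). The partners with the smallest p were the procollagen proteinase Bmp1 (0.57), the lysyl oxidase Loxl1 (0.77), the proteinase enhancer Pcolce (1.10) and the prolyl isomerase Fkbp14 (0.53).

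Among 14 collagen chains 8 stood above and 3 below wildtype with groups apart (20.6% and 14.3% of all genes), the median being 0.45 log2 units. In limma 0 passed an adjusted p of 0.05 and 4 had an unadjusted p under 0.05 (8.02% of all genes). Col5a1, a regulatory fibrillar chain, had 1037 and 965 on the labelled Tfrc-null arrays, against 607 and 553 on the wildtype arrays (log2 difference 0.79, SE 0.18, limma adjusted p = 0.330). Col5a2 and Col14a1 followed at 0.59 and 0.62. The 3 lower without overlap were Col18a1 at -0.48 and the basement membrane chains Col4a1 and Col4a2 at -0.24 and -0.31 (these 2 chains were picked out with their values known). The fibrillar chain Col2a1 overlapped, at a log2 difference of -0.18.

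Markers of stroma, the cells that make most fibrillar collagen in the embryonic kidney, stood on the same side as most collagen hydroxylases. Of 12 stromal markers 11 had higher means (57.5% of all genes), at a median of 0.57 log2 units. With groups apart 8 were higher (20.6% of all genes). All 12 exceeded the control level on every array, and 2, Col1a1 and Col3a1, are also among the collagen chains above. Their summed intensity was 16952 to 19285 on the labelled Tfrc-null arrays and 11836 to 15575 on the wildtype arrays. The matrix protein gene Postn had 1157 and 818 on the labelled Tfrc-null arrays, against 461 and 226 on the wildtype arrays. The part of stromal content in the collagen hydroxylase values was not tested.

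**Figure D3:**
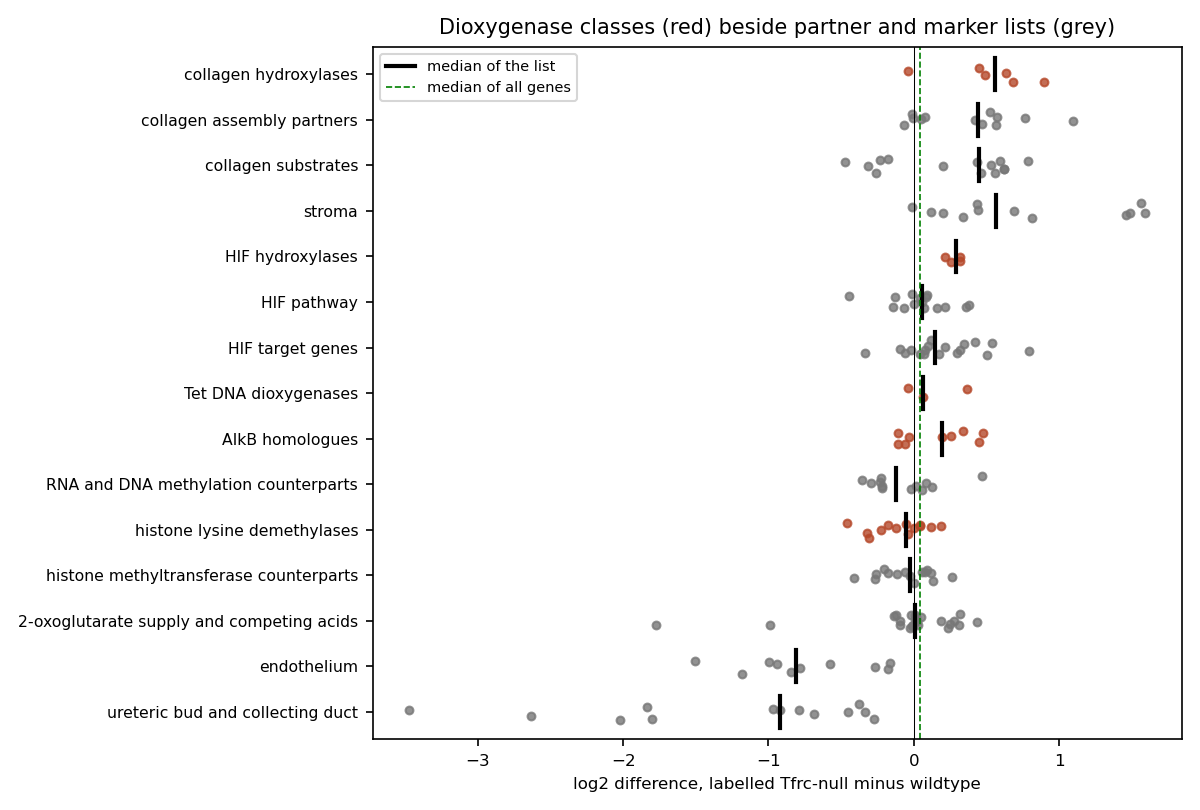
Log2 difference (labelled Tfrc-null minus wildtype) of each measured gene in the dioxygenase classes (red, including Kdm4d) and in partner and marker lists (grey), with a black bar at each list's median and a dashed line at the median of all genes, 0.04. Medians are 0.56 for collagen hydroxylases, 0.57 for stroma, 0.29 for HIF hydroxylases, -0.05 for histone demethylases and -0.92 for the ureteric bud.

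The HIF hydroxylases had higher means in the labelled Tfrc-null cells, but none passed a test. Egln1, Egln2 and Egln3 encode the prolyl hydroxylases that mark HIF alpha subunits for the von Hippel-Lindau ubiquitin ligase when oxygen is present, and Hif1an encodes the asparaginyl hydroxylase that blocks HIF coactivator binding. All 4 had higher means (as had 57.5% of all genes), by 0.22 to 0.32 log2 units. Without overlap 3 of 4 were higher (75.0%, against 20.6% of all genes). None had an unadjusted p under 0.05 in limma (8.02% of all genes).

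Egln2 had 409 and 392 on the labelled Tfrc-null arrays, against 293 and 350.0 on the wildtype arrays (log2 difference 0.32, SE 0.19, limma adjusted p = 0.807). Hif1an had 139.8 and 118 on the labelled Tfrc-null arrays, against 100.3 and 106 on the wildtype arrays, a difference of the same size at 0.32 (SE 0.19). A much dimmer Hif1an probe set, above the control level on all arrays, overlapped at -0.046, with 9.65 and 11.0 against 10.3 and 11.0 in wildtype. Egln1, the main oxygen sensor among the 3 prolyl hydroxylases, had 1325 and 1323 on the labelled Tfrc-null arrays, against 1088.5 and 1124 on the wildtype arrays (log2 difference 0.26, SE 0.18). The replicates of Egln1 were close within each group, and a second probe set also separated the groups, with 157 and 128 against 110.3 and 78.3 in wildtype.

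Egln3, itself a well known HIF target, had 166 and 222 on the labelled Tfrc-null arrays, against 147 and 186 on the wildtype arrays, so its groups overlapped. Its log2 difference of 0.22 shrank to 0.005 when labelled Tfrc-null replicate 2 was left out and to 0.046 when wildtype replicate 1 was, while that of Egln2 was 0.19 without wildtype replicate 1 and that of Hif1an 0.20 without labelled Tfrc-null replicate 1. The rest of the HIF pathway gave no call. Of 15 genes 2 were higher and 1 lower without overlap (20.6% and 14.3% of all genes). With limma 0 reached an unadjusted p under 0.05 (8.02% of all genes). Hif1a (log2 difference 0.07) and Vhl (0.04) overlapped. Epas1, the HIF alpha subunit known for endothelial expression, had 628 and 614 on the labelled Tfrc-null arrays, against 800.3 and 897 on the wildtype arrays (log2 difference -0.45, SE 0.18, limma adjusted p = 0.638). The endothelial marker list lay in the same direction, with a median of -0.81, a summed intensity of 3130.5 to 3834 on the labelled Tfrc-null arrays and 5158 to 6128 on the wildtype arrays, and every marker above the control level on at least 1 array. Its part in the Epas1 value was not tested.

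Of 18 measured HIF target genes 14 had higher means (57.5% of all genes), and 2 were higher and 1 lower without overlap (20.6% and 14.3%). With limma 0 reached an unadjusted p under 0.05 (8.02% of all genes). The median log2 difference of the HIF targets was 0.14. Car9, a membrane-bound carbonic anhydrase, had the smallest p at 13.3 and 30.6 on the labelled Tfrc-null arrays, against 10.2 and 13.3 on the wildtype arrays. Its lower labelled Tfrc-null value and its higher wildtype value were all but equal. Vegfa (0.04) and Slc2a1 (-0.02), chosen after their values were seen, showed overlapping groups. Among 9 dioxygenase genes listed as HIF-inducible, 4 were higher without overlap (P4ha1, P4ha2, Plod1 and Egln1, beside 20.6% of all genes) and 1 was lower (Kdm4c, beside 14.3%).

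The Tet enzymes, which oxidise methylated cytosine in DNA, did not separate the groups. Tet1 had the smallest p of the class, with 165 and 200.2 on the labelled Tfrc-null arrays, against 90.1 and 219.9 on the wildtype arrays (log2 difference 0.37, SE 0.44). The wildtype arrays enclosed both labelled Tfrc-null arrays. A further Tet1 probe set stood the other way, with 24.0 and 28.8 on the labelled Tfrc-null arrays, against 40.3 and 34.4 on the wildtype arrays, so the direction for Tet1 depended on the probe set. Tet2, with group means of 873 ± 151 and 837 ± 165 in wildtype, and Tet3, with 27.4 ± 4.67 and 28.0 ± 1.05 in wildtype (SD, n = 2 each), had log2 differences of 0.06 and -0.04.

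Of the AlkB homologues and Fto, 4 of 9 were higher without overlap (44.4%, against 20.6% of all genes) and 0 were lower (14.3% of all genes). With limma 0 of the 9 reached an unadjusted p under 0.05 (8.02% of all genes). Alkbh7, a mitochondrial member linked to programmed necrosis, had 345 and 243 on the labelled Tfrc-null arrays, against 226 and 200.04 on the wildtype arrays (log2 difference 0.45, SE 0.24, limma adjusted p = 0.761). Alkbh4 had 168 and 189 on the labelled Tfrc-null arrays, against 100.3 and 163 on the wildtype arrays (log2 difference 0.48, SE 0.28), a difference of 0.13 without wildtype replicate 1 and 0.83 without wildtype replicate 2. With labelled Tfrc-null replicate 1 left out the Alkbh7 difference was 0.20, and with replicate 2 of that group left out it was 0.70. The other 2 Alkbh4 probe sets gave 0.56 and 0.43. Alkbh2, which repairs methylated bases in DNA, had 75.9 and 61.4 on the labelled Tfrc-null arrays, against 50.8 and 57.1 on the wildtype arrays.

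Fto, a demethylase of methylated adenosine in RNA, had 349 and 341 on the labelled Tfrc-null arrays, against 279 and 326 on the wildtype arrays (log2 difference 0.20, SE 0.19, and 0.083 without wildtype replicate 1). The groups of Alkbh5, the other RNA adenosine demethylase, overlapped, with 4067 and 4570.5 on the labelled Tfrc-null arrays, against 4272 and 4568 on the wildtype arrays. Alkbh1, Alkbh3, Alkbh6 and Alkbh8 also overlapped, with log2 differences of -0.11 to 0.25. A second Alkbh8 probe set, just above the control level in one group, had 8.57 and 8.65 on the labelled Tfrc-null arrays, against 16.8 and 21.0 on the wildtype arrays (log2 difference -1.12, SE 0.21, limma adjusted p = 0.273 over all probe sets). This was not seen with the brighter Alkbh8 probe set, at 70.8 and 60.1 against 71.8 and 68.8 in wildtype. Of 12 measured counterparts that write or read DNA and RNA methylation, 1 was higher and 4 were lower without overlap (20.6% and 14.3% of all genes). Among them were Mbd4 at 0.47, Mettl14 at -0.36, Mettl3 at -0.30 and Ythdc1 at -0.22.

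The histone lysine demethylases were the class with the most lower means, 9 of 13 (as had 42.5% of all genes), and a median log2 difference of -0.05, or -0.087 without Kdm4d. None was higher without overlap (20.6% of all genes). Without overlap 3 of 13 were lower (23.1%, against 14.3% of all genes), Kdm4c, Kdm3b and Kdm2b. None had an unadjusted p under 0.05 in limma (8.02% of all genes). Ureteric bud markers were lower in the same cells, with a summed intensity of 3490.5 to 4142 on the labelled Tfrc-null arrays and 7910.5 to 8454.5 on the wildtype arrays, and their part in these values was not tested. Kdm4c, which removes methyl groups from lysines of the histone H3 tail, had 58.0 and 53.3 on the labelled Tfrc-null arrays, against 82.3 and 70.9 on the wildtype arrays (log2 difference -0.46, SE 0.19, limma adjusted p = 0.654). The distance between the groups exceeded the distance between replicates of either.

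Kdm3b had 141 and 160 on the labelled Tfrc-null arrays, against 171 and 203 on the wildtype arrays (log2 difference -0.31, SE 0.20). A dimmer second probe set of Kdm3b stood the other way at 0.22 with overlapping groups. Kdm2b, a component of a variant Polycomb complex, had 2621 and 2936 on the labelled Tfrc-null arrays, against 3242 and 3233 on the wildtype arrays (log2 difference -0.22, SE 0.18). Its second probe set agreed in direction, with 905 and 1053 against 1212 and 1273 in wildtype, a log2 difference of -0.35. Both Kdm2b probe sets separated the groups.

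For the other histone demethylases the groups overlapped. Kdm5b varied most between replicates, with 588 and 869 on the labelled Tfrc-null arrays, against 637 and 1258 on the wildtype arrays, and its second brightest probe set stood the other way with groups apart (0.23). The brightest Kdm5a probe set gave -0.04, while another gave -0.48, with 72.4 and 82.5 on the labelled Tfrc-null arrays, against 102 and 113 on the wildtype arrays. Kdm6b was represented by a probe set with 5355 and 5561 on the labelled Tfrc-null arrays, against 5757 and 5550.0 on the wildtype arrays. The next Kdm6b probe set had intensities of 36.9 and 33.0 against 33.0 and 23.6 in wildtype, so which of them reports Kdm6b was not determined. Kdm3a, Kdm4a, Kdm4b, Kdm2a, Phf2 and Phf8 had log2 differences from -0.18 (Kdm4a) to 0.19 (Kdm4b). The brightest Kdm2a probe set gave 0.12. Another stood lower with groups apart at -0.38, with 63.0 and 59.9 against 99.1 and 64.6 in wildtype. The opposing methyltransferases, 15 genes measured, had 1 higher and 2 lower without overlap (20.6% and 14.3% of all genes). Their median was -0.03, with Ezh1 at -0.41, Setd1b and Kmt2b at -0.26 and 0.26, and Suv39h2 at 0.13.

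The remaining enzymes act on other proteins and on small molecules. Jmjd6, a lysyl hydroxylase of splicing factors, had 608 and 664 on the labelled Tfrc-null arrays, against 488 and 599 on the wildtype arrays (log2 difference 0.23, SE 0.20, limma adjusted p = 0.908). Phyh, the peroxisomal phytanoyl-CoA hydroxylase, had 292 and 291 on the labelled Tfrc-null arrays, against 247 and 281 on the wildtype arrays. Both were higher without overlap, by less than 0.5 log2 units, and without wildtype replicate 1 the differences were 0.083 for Jmjd6 and 0.050 for Phyh. Asph, which hydroxylates aspartate and asparagine in epidermal growth factor-like domains, overlapped in its brightest probe set at 836 and 1048 against 827 and 1146 in wildtype. Another Asph probe set separated the groups, with 124 and 134 on the labelled Tfrc-null arrays, against 80.5 and 88.4 on the wildtype arrays (log2 difference 0.61, SE 0.19, limma adjusted p = 0.566 over all probe sets).

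Tmlhe, the first enzyme of carnitine synthesis, had 27.1 and 35.4 on the labelled Tfrc-null arrays, against 35.4 and 30.3 on the wildtype arrays, and Bbox1, the last enzyme of that route, was not above the control level. A dimmer Tmlhe probe set separated the groups, at 26.8 and 13.6 against 9.39 and 9.26 in wildtype. These wildtype values lay just above the control level of those arrays, 7.18 and 9.08. Ogfod1, a prolyl hydroxylase of a ribosomal protein, overlapped, with group means of 88.4 ± 4.84 and 84.9 ± 6.24 in wildtype (SD, n = 2 each). Of 11 measured carnitine and phytanic acid partners, 3 were higher and 1 lower without overlap (20.6% and 14.3% of all genes). Phyhip, named for its binding to phytanoyl-CoA hydroxylase, had 28.3 and 27.2 on the labelled Tfrc-null arrays, against 8.88 and 9.83 on the wildtype arrays (log2 difference 1.57, SE 0.18, limma adjusted p = 0.122). Its wildtype values also lay just above the control level, so the size of this difference is uncertain. Cpt1a, which passes fatty acids to carnitine, Crat and Slc22a4 had log2 differences of -0.71, 0.32 and 0.28, the last not above the control level on 3 of 4 arrays. Further Cpt1a probe sets gave -0.53 with groups apart and -0.18 with overlapping groups.

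Other genes of the dioxygenase superfamily outside the 41 were split as well. Of 21 measured, 5 were higher and 4 lower with groups apart (20.6% and 14.3% of all genes), and the median was 0.04 log2 units. In limma 0 passed an adjusted p of 0.05 and 2 had an unadjusted p under 0.05 (8.02% of all genes). The 3 of the 21 with the smallest p were prolyl hydroxylases. P3h3, a collagen prolyl 3-hydroxylase, had 333 and 339 on the labelled Tfrc-null arrays, against 239 and 205 on the wildtype arrays (log2 difference 0.60, SE 0.19, limma adjusted p = 0.505). P4htm and P3h1 had 0.50 and 0.42, and Hspbap1 had -0.48. A second P4htm probe set overlapped at -0.02, with 25.7 and 41.6 on the labelled Tfrc-null arrays, against 31.3 and 35.3 on the wildtype arrays, while a second P3h1 probe set had groups apart at 0.31. P3h2, the remaining collagen prolyl 3-hydroxylase of the list, overlapped at 0.05, with 318 and 313 on the labelled Tfrc-null arrays, against 282 and 331 on the wildtype arrays.

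Genes that supply 2-oxoglutarate, or metabolise the acids that compete with it, had a median log2 difference of 0.01 over 23 measured. Without overlap 2 were higher and 4 lower (20.6% and 14.3% of all genes), and 2 had an unadjusted p under 0.05 in limma (8.02% of all genes). D2hgdh, which returns D-2-hydroxyglutarate, a competitive inhibitor of these dioxygenases, to 2-oxoglutarate, had 362 and 242 on the labelled Tfrc-null arrays, against 1142 and 899 on the wildtype arrays. This was 3.42-fold lower (log2 difference -1.77, SE 0.27, limma adjusted p = 0.191), and a second probe set, at 92.0 and 93.5 against 159 and 106 in wildtype, gave -0.48. The sizes of the D2hgdh probe sets therefore disagreed while their direction did not. Adhfe1, a transhydrogenase that forms D-2-hydroxyglutarate, had 32.8 and 20.4 on the labelled Tfrc-null arrays, against 40.3 and 65.3 on the wildtype arrays, a log2 difference of -0.99, and a second probe set gave -0.38. Sdhb and Slc25a1 had 0.31 and 0.43. Ascorbate supply, 5 genes, had 0 higher and 0 lower without overlap (20.6% and 14.3% of all genes). Gulo was above the control level on none of the 4 arrays.

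Agreement between probe sets set a limit on single genes. The 41 genes had 95 single-gene probe sets, and 28 genes had more than 1. Of 38 further probe sets above the control level on all arrays, in 22 genes, 20 had a difference of the same sign as the one used and 18 had the other sign. Those of P4ha1, Egln1, Alkbh4 and Kdm2b all kept the sign of the brightest probe set. Those of Hif1an, Tet1, Asph, Kdm2a, Kdm5b and Tmlhe, among others, did not all do so.

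**Figure D4:**
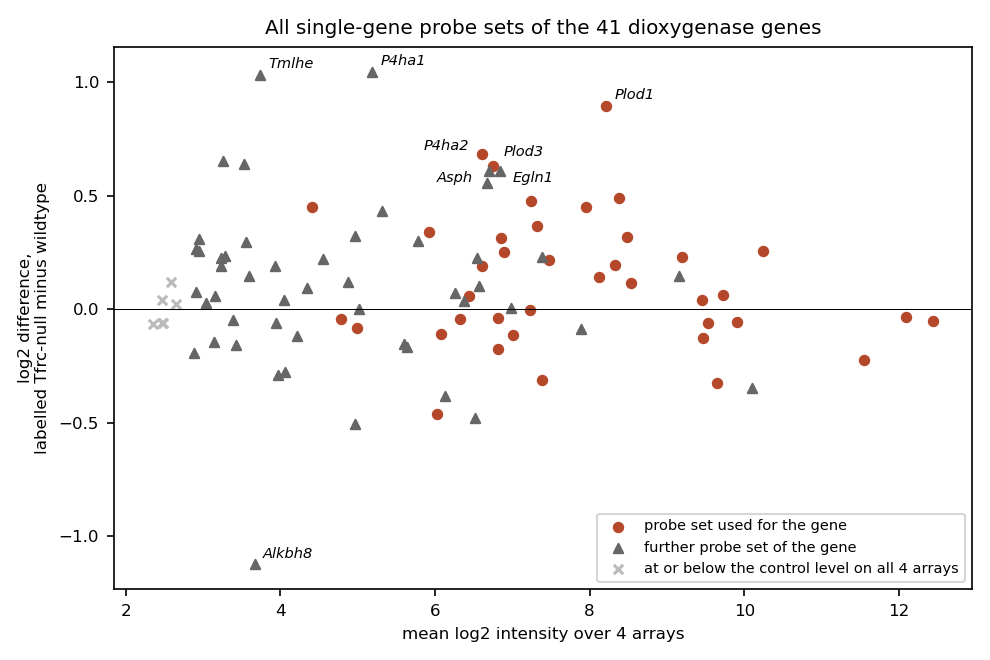
Log2 difference (labelled Tfrc-null minus wildtype, vertical axis) against mean log2 intensity over the 4 arrays for the 95 single-gene probe sets of the 41 genes, marking the one used per gene (circles), further ones (triangles) and those that exceed the control level on no array (crosses). The further probe sets of P4ha1 and Tmlhe lie at 1.05 and 1.03 and that of Alkbh8 at -1.12.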

How the data were processed

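The authors deposited linear intensities per probe set. The submitters' processing notes name RMA alone, and its version and settings are not given in the sources used here. This method equalises array distributions, so a shift shared by most genes would be removed. Per the labels' protocols, 50 ng of total RNA was amplified isothermally and labelled with biotin. Log2 was taken of all 45101 probe sets without rescaling. The platform annotation gave 1 symbol for 34958, several for 932 and none for 9211; symbols were updated by Entrez identifier through RefSeq (GRCm38.p6), which held 18033 of 18194 genes. Probe sets with several symbols or none were not used. Median intensities were 17.5 and 18.8 on the labelled Tfrc-null arrays and 17.9 and 19.3 on the wildtype arrays.

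Differences were tested with limma 3.58.1 (R 4.3.3; lmFit, eBayes, no block), adjusted by Benjamini-Hochberg over all genes, or over all single-gene probe sets where stated. The test was checked on simulated data. The labels call the arrays biological replicates without naming animals, so p-values measure the spread between these samples, and 2 arrays per group limit the precision. The gene set and lists were chosen with earlier results of these data known. Array values are given for genes with an unadjusted p under 0.05, genes apart by 0.5 log2 units without overlap and the smallest p of each class; up to 4 genes per partner list are named by p. Array values of further genes were chosen after they were seen. Alternatives are given in the closing section.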

Additional observations from a re-analysis of the deposited data

How the results depend on the processing

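No dioxygenase gene passed an adjusted p of 0.05 under any of the 10 alternatives, and the median log2 difference kept its sign, between 0.034 and 0.17 with an array left out. With all arrays this median was 0.06, against 0.04 over all genes. Its SD over the 4 pairings of 1 array from each group was 0.086. The median of all genes with an array left out was not computed. Over all genes 2 passed an adjusted p of 0.05 in limma with the replicate number as a block (Stfa3 and Stfa2l1). The same 2 passed with a variance trend and robust prior, and 1 (Stfa3) with the mean of all probe sets. These genes are named after their values were seen. The labels do not say that the number marks a shared animal or day, and the replicate differences of the groups correlated at 0.512 across genes, which are not independent. The number of dioxygenase genes at an unadjusted p under 0.05 was 6 with the replicate block (14.6%, against 14.8% of all genes), 6 with the mean of probe sets (14.6%, against 8.29%), 5 with an offset of 16 (12.2%, against 9.51%) and 1 to 5 with an array left out (2.44% to 12.2%, against 4.13% to 10.5%). Of these, 1 was lower with the block, 2 with the mean of probe sets and 1 with the offset (Kdm4c each time, at unadjusted p of 0.0302, 0.0411 and 0.0306 in limma, and Alkbh8 with the mean, at 0.0112). Dioxygenase genes higher without overlap numbered 17 to 22, and lower 8 to 10, with an array left out, against 13 and 3 with all arrays. Leaving out an array leaves a single array in 1 group, assumed to vary like the other group. A single array separates from the other group more easily. The share of all genes was not computed for that case, so no conclusion is drawn from the larger counts. The mean of probe sets turned the sign of Plod2 (0.13), Tet1 (-0.049), Kdm6b (0.098), Phf2 (0.072), Phf8 (0.029), Asph (0.18) and Tmlhe (0.22). Leaving out arrays gave ranges that cross 0 of -0.038 to 0.94 for P4ha3, -0.23 to 0.15 for Plod2, -0.27 to 1.01 for Tet1, -0.14 to 0.26 for Tet2, -0.22 to 0.13 for Tet3, -0.52 to 0.30 for Alkbh1, -0.23 to 0.11 for Alkbh3, -0.12 to 0.049 for Alkbh5, -0.31 to 0.82 for Alkbh6, -0.23 to 0.011 for Alkbh8, -0.027 to 0.26 for Kdm2a, -0.25 to 0.34 for Kdm3a, -0.37 to 0.021 for Kdm4a, -0.085 to 0.46 for Kdm4b, -0.20 to 0.12 for Kdm5a, -0.81 to 0.17 for Kdm5b, -0.41 to 0.17 for Phf2, -0.18 to 0.18 for Phf8, -0.29 to 0.18 for Asph, -0.27 to 0.11 for Tmlhe, -0.015 to 0.14 for Ogfod1. The ranges that keep their sign were 0.24 to 0.28 for Egln1, 0.19 to 0.45 for Egln2, 0.005 to 0.43 for Egln3, 0.20 to 0.44 for Hif1an, 0.19 to 0.50 for Alkbh2, 0.13 to 0.83 for Alkbh4, 0.20 to 0.70 for Alkbh7, 0.083 to 0.31 for Fto, 0.083 to 0.38 for Jmjd6, 0.05 to 0.24 for Phyh, -0.30 to -0.14 for Kdm2b, -0.43 to -0.18 for Kdm3b, -0.57 to -0.35 for Kdm4c and -0.078 to -0.024 for Kdm6b. The cause of these shifts was not tested. Among the genes that keep their sign, only the groups of Egln3 and Kdm6b overlapped. For groups that do not overlap, leaving out an array cannot turn the sign. Differences of Plod1, P4ha2, Plod3 and P4ha1 were 0.72 to 1.08, 0.47 to 0.89, 0.43 to 0.83 and 0.24 to 0.74 with an array left out. Their groups did not overlap either, so leaving out an array could not turn their sign. Genes near the control level have little signal over background.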
